A study of Mus musculus with 6 samples.

Results

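The Smads and the feedback inhibitors of TGF-β signaling were examined in bulk RNA sequencing of mouse thoracic aorta. The 10 genes, taken by name from the 52636 genes of the count table through their Ensembl identifiers, were the receptor-activated Smads Smad1, Smad2, Smad3 and Smad5, the common mediator Smad4, the inhibitory Smads Smad6 and Smad7, the corepressors Ski and Skil, and the membrane protein Pmepa1. All 10 were counted in every library and all entered the test. Pmepa1 was the only one of them that passed the test between the groups: its transcript was 2.74-fold lower in the aortas labelled KO. The other 9, among them Smad7, Ski and Skil, did not pass the test in either direction.

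Libraries of 4 wild-type C57BL/6J mice (WT) were compared with those of 2 Tgfbr1/2iSMCKO mice (KO), all aged 12 weeks. The KO mice carried Tgfbr1 fl/fl and Tgfbr2 fl/fl alleles together with Myh11-CreERT2 and mT/mG, a fluorescent reporter of Cre activity, and were given tamoxifen at 2 mg per day i.p. for 5 days from 11 weeks of age. The comparison asks which transcripts change soon after both TGF-β receptors are deleted from smooth muscle cells (SMCs). The WT mice were untreated and lacked the floxed alleles, Cre and reporter, so receptor loss, tamoxifen, Cre and reporter cannot be told apart here. Cre is driven by Myh11 and acts in SMCs, whereas the RNA came from the whole vessel, and fewer cells of a type and less RNA per cell cannot be told apart in it.

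TGF-β binds a pair of serine/threonine kinase receptors that phosphorylate Smad2 and Smad3, while bone morphogenetic protein (BMP) receptors phosphorylate Smad1, Smad5 and Smad9. The activated Smads join Smad4 and enter the nucleus to regulate target genes. Several of those targets act back on the pathway: Smad6 and Smad7 block the receptors and bring ubiquitin ligases to them, Ski and Skil (SnoN) repress Smad target genes in the nucleus, and Pmepa1 holds Smad2 and Smad3 away from the receptor. In the aorta, disturbed TGF-β signaling is known from inherited aneurysm syndromes with mutations in TGFBR1, TGFBR2, SMAD3 and SKI among others.

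One sequence feature of such feedback is the palindromic Smad-binding element GTCTAGAC. It was sought on both strands in RefSeq promoter windows of 300 bases (250 before to 50 after each start site, GRCm38.p6), which were at hand for 5 of the 10 genes (Smad1, Smad3, Smad5, Smad6 and Ski, with 7 windows in all). It occurred in 70 of 32851 windows over all genes (0.213%) and, of these 5 genes, in that of Smad6. The Smad6 window is shown because of this match, from its upstream end to the end of the element (chr9:64022056-64022309, minus strand, 5′ to 3′), with the element in capitals, beginning 4 bases before the start site.
Smad6 promoter: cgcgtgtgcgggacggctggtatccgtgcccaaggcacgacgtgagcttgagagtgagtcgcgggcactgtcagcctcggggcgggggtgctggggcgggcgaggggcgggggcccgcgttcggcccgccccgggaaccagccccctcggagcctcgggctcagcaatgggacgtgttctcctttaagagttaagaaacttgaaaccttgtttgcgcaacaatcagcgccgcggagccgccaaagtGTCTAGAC
The shorter motif CAGACA, a form of the CAGA box bound by Smad3, was in none of the 7 windows and in 21% of all windows. The GC-rich motif GGCGCC was in those of Ski and Smad5 and in 11.9% of all windows. These matches describe letters only, and the values of Smad6 below are from RNA.

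Total estimated counts ran from 19650983 to 28860598 per library. Normalised counts are counts divided by a size factor of the library, and changes are DESeq2 log2 fold changes, KO against WT, with the standard error (SE) and a Benjamini-Hochberg adjusted p over the 17070 genes tested. Whether the animals of a group were littermates or were processed together is not given, so the p-values refer to the spread between these libraries. DESeq2 estimates that spread for both groups together and draws it towards that of genes with similar counts. The p-values thus rest on no separate estimate of the spread between KO animals. The targeted genes did not pass the DESeq2 test in whole-gene counts. Tgfbr1 was 4510 ± 725.6 in WT and 5174 ± 857.6 in KO (SD, n = 4 and 2, log2 change 0.20 ± 0.20 SE, adjusted p = 0.63). Tgfbr2 was 6240 ± 882 and 5861 ± 108 (-0.09 ± 0.18, adjusted p = 0.838). A whole-gene count also takes in exons that Cre leaves in place and cells that have no Cre, and is no check of the deletion. The lowest count of any of the 10 genes was 240 (Smad2 in WT-1), for which counting error alone gives a 95% Poisson interval of 210.6 to 272.4, and the highest was 20505.

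Of all tested genes, 4.69% passed an adjusted p of 0.05 as lower in KO and 5.71% as higher. Beside these shares, 1 of the 10 genes was lower and 0 were higher. With a change of more than 2-fold also required, the shares over all genes were 2.1% lower and 3.54% higher, and Pmepa1 again was the only one of the 10 called. At an unadjusted p under 0.05 there were 2 of 10, Pmepa1 and Smad3, beside 22.2% of all tested genes. By edgeR's quasi-likelihood test the call was the same, 1 lower and 0 higher. The median log2 change of the 10 genes was 0.02, beside 0.01 over all tested genes.

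**Figure D1:**
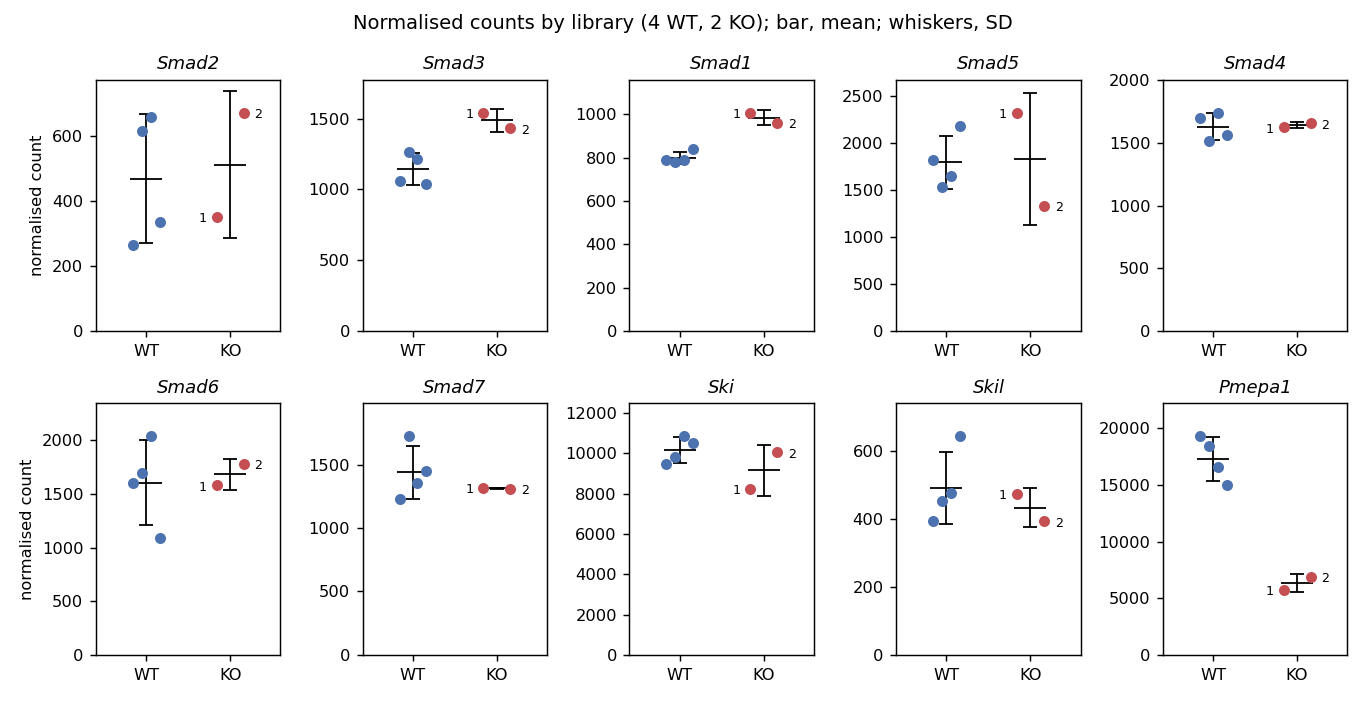
Normalised counts (vertical axes, linear, each from 0) of the 10 genes in each library, WT in blue and KO in red with the number of the KO library, with the mean as a bar and the SD as whiskers (n = 4 and 2). For Pmepa1 the KO libraries lie at 5764 and 6888, below every WT library, and for Smad1 and Smad3 they lie above every WT library; in the other 7 panels the groups overlap.

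Among the receptor-activated Smads of the TGF-β branch, Smad3 (ENSMUSG00000032402.12, GRCm38 chromosome 9, 63646767 to 63757994, minus strand) carries most of the direct DNA binding. Normalised counts of 1060, 1262, 1215 and 1040 in the WT libraries (in the order WT-1 to WT-4, here and below) compared with 1543 and 1431 in KO-1 and KO-2. Both KO libraries were thus above every WT library. The fitted difference was 1.3-fold (log2 change 0.38 ± 0.18 SE, 95% interval 0.03 to 0.73) and did not pass correction (DESeq2 adjusted p = 0.173). Over 15 alternative fits the log2 change stayed between 0.32 and 0.46 and the adjusted p was 0.0521 or more.

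Smad2 (ENSMUSG00000024563.15, chromosome 18, 76241580 to 76310963, plus strand), the partner of Smad3 in signaling from the TGF-β and activin receptors, was the most uneven of the 10 genes. Its values were 263.6, 617, 658.1 and 335.2 normalised counts in WT, a coefficient of variation of 42.3%, and 352.1 and 672.4 in KO-1 and KO-2. In each group some libraries were low and some high, and the KO values fell on either side of the WT mean. The log2 change was 0.13 ± 0.38 (SE, adjusted p = 0.898), with a 95% interval of -0.62 to 0.87 that spans changes from 0.65-fold to 1.83-fold. With KO-2 left out it was -0.40 and with KO-1 left out it was 0.52, and it was also just below 0 without WT-1 (-0.07) or WT-4 (-0.00279).

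Of the BMP branch, Smad1 (ENSMUSG00000031681.16, chromosome 8, 79338395 to 79399518, minus strand) had the tightest WT values of the 10 genes, 787.6, 779.5, 787.9 and 840.5 (coefficient of variation 3.51%), and stood at 1008 and 961.2 in KO-1 and KO-2. Both KO libraries were higher than every WT library. The difference of 1.23-fold (log2 change 0.30 ± 0.17 SE, 95% interval -0.03 to 0.63) did not pass the test (adjusted p = 0.28). Groups that did not overlap with KO higher were found for 17.9% of all tested genes, and for 2 of these 10, Smad1 and Smad3; KO was lower without overlap for 16.4% of all genes and for Pmepa1 alone of the 10.

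Smad5 (ENSMUSG00000021540.16, chromosome 13, 56703010 to 56742377, plus strand), the close relative of Smad1, had 1812, 1533, 1651 and 2179 normalised counts in WT. KO-1 was above all of them at 2320 and KO-2 below all of them at 1330. This gave a log2 change of 0.03 ± 0.25 (SE, adjusted p = 0.968), 0.38 without KO-2 and -0.43 without KO-1. The small RNA gene Gm27301, annotated on the same strand, covers 100 of its exon bases (1.35%), and no other gene's exons overlap those of the 10.

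Smad4 (ENSMUSG00000024515.13, chromosome 18, 73639009 to 73703780, minus strand), the partner of every activated Smad, was nearly level. It had 1697, 1515, 1743 and 1564 normalised counts in WT and 1625 and 1657 in KO, so that both KO libraries lay inside the WT range. The log2 change was 0.01 ± 0.16 (SE, adjusted p = 0.982). Its 95% interval, -0.31 to 0.33, leaves room for changes between 0.808-fold and 1.25-fold.

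The inhibitory Smads are induced by the pathways they block, Smad6 mainly by BMP and Smad7 by both TGF-β and BMP. Smad7 (ENSMUSG00000025880.11, chromosome 18, 75367529 to 75395935, plus strand) had 1230, 1723, 1354 and 1451 normalised counts in WT, and 1316 and 1308 in the KO libraries. These 2 values lay within the WT range and close together. The log2 change was -0.13 ± 0.19 (SE, adjusted p = 0.756), and the 95% interval of -0.51 to 0.24 does not reach a 2-fold decrease.

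Smad6 (ENSMUSG00000036867.7, chromosome 9, 63953076 to 64022059, minus strand), whose promoter window is shown above, had 1599, 1693, 2036 and 1085 normalised counts in WT and 1581 and 1780 in KO. The lowest and the highest of the 6 values were both WT. A log2 change of 0.07 ± 0.24 (SE, adjusted p = 0.916) was fitted, with a 95% interval of -0.41 to 0.55.

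Ski (ENSMUSG00000029050.15, chromosome 4, 155154075 to 155222592, minus strand) had the second largest counts of the 10 genes, with 9440, 9807, 10840 and 10510 normalised counts in WT, and 8242 and 10050 in KO-1 and KO-2. KO-1 was below every WT library and KO-2 was inside their range. In the fit the log2 difference was -0.15 ± 0.16 (SE, 95% interval -0.47 to 0.17, adjusted p = 0.659).

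Skil (ENSMUSG00000027660.16, chromosome 3, 31095058 to 31122577, plus strand), an immediate target of TGF-β in many cells whose protein is degraded on signaling, had 394.3, 451.7, 475.3 and 643.2 normalised counts in WT. KO-1 and KO-2 had 473.5 and 393.3, the second of which was just under the lowest WT value. The log2 change was -0.18 ± 0.25 (SE, adjusted p = 0.75). The 95% interval, -0.67 to 0.31, excludes neither a moderate decrease nor a small increase.

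Pmepa1 (ENSMUSG00000038400.15, chromosome 2, 173224458 to 173276533, minus strand) is itself induced by TGF-β. It had 19300, 18410, 16550 and 15000 normalised counts in WT, and 5764 and 6888 in KO-1 and KO-2. The groups were far apart, with the higher KO library below the lowest WT library by a gap wider than the whole WT range. From 17320 ± 1921 in WT the level fell to 6326 ± 794.6 in KO (SD, n = 4 and 2), 2.74-fold lower with a 95% interval of 2.16 to 3.48 (log2 change -1.45 ± 0.18 SE, adjusted p = 5.76e-14). Left out in turn, no single library moved the log2 change outside -1.58 to -1.33, and the call held each time. A stricter test, of whether the decrease exceeds 2-fold, gave an adjusted p of 0.79.

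**Figure D2:**
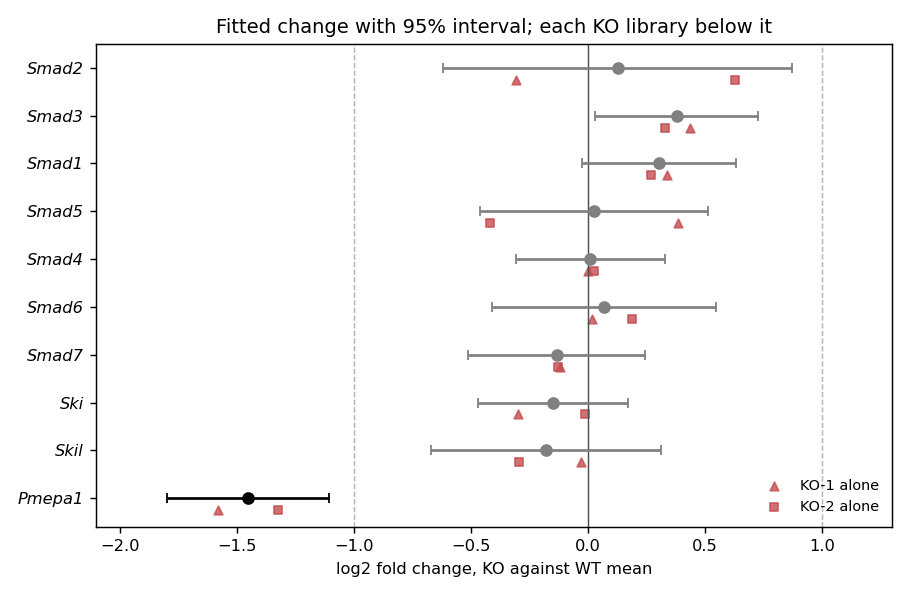
Fitted log2 fold change of each gene, KO against WT (horizontal axis; points with 95% intervals, black where the adjusted p is under 0.05), with the change of each KO library against the WT mean below it (triangle, KO-1; square, KO-2) and dashed lines at a 2-fold change. Pmepa1 lies alone at -1.45; the KO libraries fall on opposite sides of 0 for Smad2 (-0.31 and 0.63) and Smad5 (0.38 and -0.42).

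The order of the genes was compared as normalised counts per kilobase of merged exons, the scale on which levels of different genes can be set side by side. In WT, Pmepa1 led with 3525 ± 391 per kilobase (SD, n = 4), 1.93 times the level of Ski (1824 ± 114.7), which in turn was 3.65 times that of Smad6 (500.2 ± 122.7). Then came Smad4 (439 ± 28.99), Smad7 (318.5 ± 46.36), Smad5 (241.8 ± 37.91), Smad3 (206.5 ± 19.99), Smad1 (127.6 ± 4.479), Smad2 (53.35 ± 22.56) and Skil (50.66 ± 11.03). The WT ranges of Smad6 and Smad4 overlapped, as did those of Smad7 and Smad5, of Smad5 and Smad3, and of Smad2 and Skil. Those of Smad6 (338.5 to 635.3) and Smad7 (272.1 to 381.2) overlapped too. The places of these genes in the order were thus not separated by the spread between libraries. The levels also depend on the exon length used, as the shares below do. For these Smads the WT order was the same with the longest transcript in place of merged exons. It was not recomputed for Pmepa1, Ski and Skil. Of the feedback genes, Pmepa1 and Ski stood above the Smads in every WT library, whereas Skil was not separated from Smad2, the lowest of the Smads.

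In KO the order changed at the top. Ski, at 1482 and 1807 per kilobase in KO-1 and KO-2, was above Pmepa1, at 1173 and 1402. The ratio of Pmepa1 to Smad7, both per kilobase, was 9.51 to 14.4 in the WT libraries and 4.03 and 4.85 in the KO libraries. The ratio of Ski to its relative Skil was 28.5 to 41.7 in WT and 30.3 and 44.5 in KO, which overlap.

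The make-up of the Smad family was then described as the share of each Smad in the summed level per kilobase of the 8 mouse Smads, that is the 7 above and Smad9. In WT the inhibitory Smads together made up 39.9% ± 3.68 (SD, n = 4) of the Smad transcripts, the BMP branch 25.8% ± 3.47, Smad4 21.6% ± 1.71 and the TGF-β branch 12.7% ± 1.28. The KO libraries had 34.9% and 37.9% inhibitory Smads and 14.2% and 15% for Smad2 and Smad3 together. For the inhibitory Smads KO-1 was marginally below the WT range of 35.0% to 43.5% and KO-2 was inside it. For Smad2 and Smad3 together KO-1 was inside the WT range of 11.4% to 14.3% and KO-2 was above it. Smad7 alone was 13.3% to 18.3% in WT and 13.0% in both KO libraries. Smad3 alone was 9.77% to 10.9% in WT and 12.4% and 11.6% in KO. Smad9, a BMP-branch Smad that is also a BMP target, was 6.59% to 8.82% in WT and 10.4% and 12.2% in KO. Shares sum to a whole and so do not move independently, and they depend on the exon length used: with the longest transcript in place of merged exons, Smad1 was 9.33% in WT in place of 6.29%. They are given as a description with no test.

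**Figure D3:**
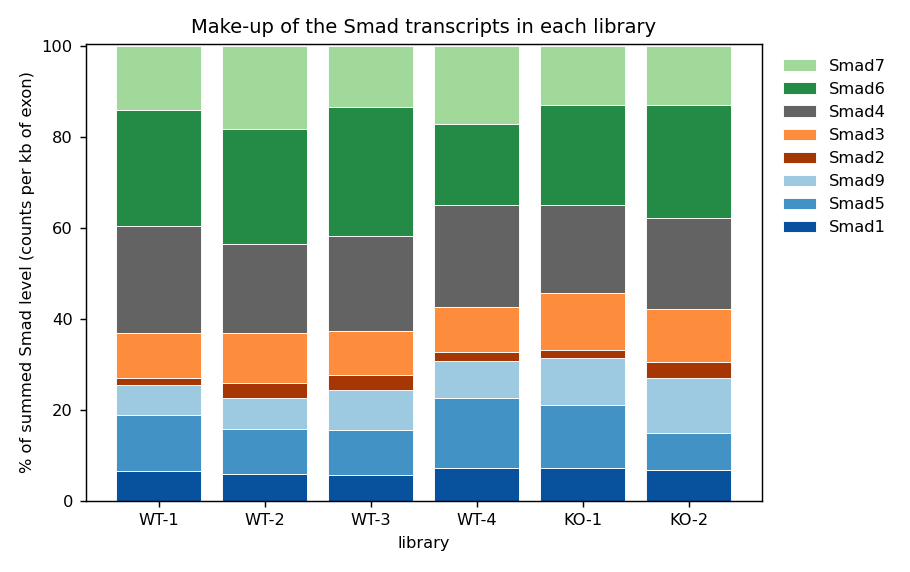
Share of each of the 8 Smads (vertical axis, percent of the summed normalised counts per kilobase of exon) in each library; blue, BMP branch; orange, TGF-β branch; grey, Smad4; green, inhibitory Smads. Smad6 and Smad7 make up 34.9% to 43.5% in every library, and the Smad9 band is wider in KO-1 and KO-2 (10.4% and 12.2%) than in any WT library.

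The rest of the pathway was read from 5 lists with 80 genes, of which 78 had an adjusted p. Of these, 11 were lower and 9 higher in KO, beside 4.69% and 5.71% of all tested genes. By more than 2-fold, 4 were lower and 4 higher, beside 2.1% and 3.54% of all tested genes. The same shares apply to the counts of each list below. The median log2 change of the 78 genes was 0.10. In edgeR's quasi-likelihood test 11 passed, 7 lower and 4 higher; Bambi, Cd109, Dab2, Fkbp1a, Atf3, Zeb2, Hdac1, Adam12 and Smad9, described below, did not.

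Among 23 genes for Smad turnover and trafficking, 4 were lower and 3 higher, beside 4.69% and 5.71% of all tested genes. The median log2 change of the 23 was 0.13. Wwp2, a ubiquitin ligase of the Nedd4 family that acts on Smads, had 13670 to 17590 normalised counts in WT and 4651 and 3400 in KO, 3.92-fold lower (log2 change -1.97 ± 0.20 SE, DESeq2 adjusted p = 4.74e-20). Ldlrad4, a relative of Pmepa1 that likewise keeps Smad2 and Smad3 from the receptor, had 1871 to 2442 in WT and 913.6 and 886.2 in KO, 2.42-fold lower (-1.27 ± 0.19, adjusted p = 1.44e-09). Like Pmepa1, both were lower in each KO library than in any WT library, as were 16.4% of all tested genes.

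The other 5 calls of that list fell outside the rule for naming genes and were named after their values were seen. The pseudoreceptor Bambi (log2 change -0.64, DESeq2 adjusted p = 0.0387) and the TGF-β co-receptor Cd109 (-0.71, adjusted p = 0.0242) were lower, and the adaptor Dab2 (0.99, adjusted p = 0.00576), the type I receptor-binding protein Fkbp1a (0.91, adjusted p = 0.00674) and the deubiquitinase Usp11 (0.71, adjusted p = 0.0154) were higher. Each of these calls was lost without some single library. Bambi and Cd109 lost theirs without WT-2, WT-3, WT-4 or KO-2, the last giving -0.49 and -0.40. Dab2 lost its call without KO-2 (0.59), Fkbp1a without KO-1 (0.60), and Usp11 without WT-2 (0.65) or KO-1 (0.58).

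Of 16 nuclear Smad partners, 15 had an adjusted p (Foxh1 had no counts), with a median log2 change of 0.15. Of the 15, 2 were lower and 1 higher, beside 4.69% and 5.71% of all tested genes. Atf3, a stress-induced transcription factor that joins Smad3 on some promoters, had 1623 to 3019 normalised counts in WT and 1395 and 1133 in KO (log2 change -0.89 ± 0.24 SE, DESeq2 adjusted p = 0.00569). Zeb2, a Smad-interacting repressor, had 1255 to 1739 in WT and 1958 and 3053 in KO (0.80 ± 0.23, adjusted p = 0.00781). Without KO-2 neither passed (-0.73 and 0.46). The other call, Hdac1 (-0.52, adjusted p = 0.0235), was named after its value was seen and was lost without WT-2 (-0.52) or KO-1 (-0.37).

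Of 13 receptors of the TGF-β family, 0 were lower and 1 was higher by DESeq2 (2 in either direction at an unadjusted p under 0.05, beside 22.2% of all tested genes), with a median log2 change of 0.06. This was Acvr1c (ALK7), a type I receptor known from adipose tissue, at 16.48 to 34.13 normalised counts in WT and 69.81 and 283.9 in KO (log2 change 2.93 ± 0.57 SE, DESeq2 adjusted p = 1.46e-05). Without KO-2 the change was 1.6 and did not pass (adjusted p = 0.168). The adipocyte markers moved in the same library: their summed normalised counts were 13.0 times the WT mean in KO-2 and 1.25 times in KO-1. Their part in the result was not tested.

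Of the 15 TGF-β response genes, 5 were lower and 3 higher, beside 4.69% and 5.71% of all tested genes. The median log2 change of the 15 was -0.13. This list, like the others, was chosen with earlier results of these data known, so its count is a description only. Nox4, an NADPH oxidase, had 9182 to 14310 normalised counts in WT and 4571 and 3998 in KO, 2.68-fold lower (log2 change -1.42 ± 0.21 SE, DESeq2 adjusted p = 1.77e-09). Its decrease was of about the size of that of Pmepa1 in each KO library (-1.31 and -1.50 against -1.58 and -1.32). Ccn2, a matricellular protein, had 30030 to 49380 in WT and 19760 and 13200 in KO, 2.43-fold lower (-1.28 ± 0.24, adjusted p = 7.44e-06).

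The 3 TGF-β response genes that were higher were Thbs1, Cdkn1a and Adam12. Thbs1, a matricellular protein known to release active TGF-β, had 398.7 to 1186 normalised counts in WT and 6142 and 4204 in KO (log2 change 2.60 ± 0.34 SE, DESeq2 adjusted p = 2.52e-12). Cdkn1a, the cell cycle inhibitor p21, was 2.04-fold higher (adjusted p = 2.22e-05). Adam12, a membrane metalloprotease, rested on 1 library, with 18.97 to 46.13 normalised counts in WT, 33.39 in KO-1 and 213.9 in KO-2. Its log2 change of 1.88 (adjusted p = 0.0441) was 0.01 without KO-2. The other lower genes of the list, Itgb5 (-0.95, adjusted p = 5.19e-05), Fn1 (-0.75, adjusted p = 0.000115) and Postn (-0.71, adjusted p = 0.00122), were named after their values were seen. They encode an integrin subunit, fibronectin and periostin.

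Of 13 BMP response genes, 12 had an adjusted p, with 0 lower and 1 higher by DESeq2 (2 in either direction at an unadjusted p under 0.05, beside 22.2% of all tested genes) and a median log2 change of 0.20. The call was Smad9, at 688.7 to 1063 normalised counts in WT and 1249 and 1458 in KO, 1.63-fold higher (log2 change 0.70 ± 0.22 SE, DESeq2 adjusted p = 0.0194). It was lost without WT-1, WT-2, WT-4 or KO-2, with log2 changes of 0.60 to 0.70. Msx1, a homeobox gene induced by BMP, had the next smallest adjusted p and did not pass (-0.53, adjusted p = 0.188).

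**Figure D4:**
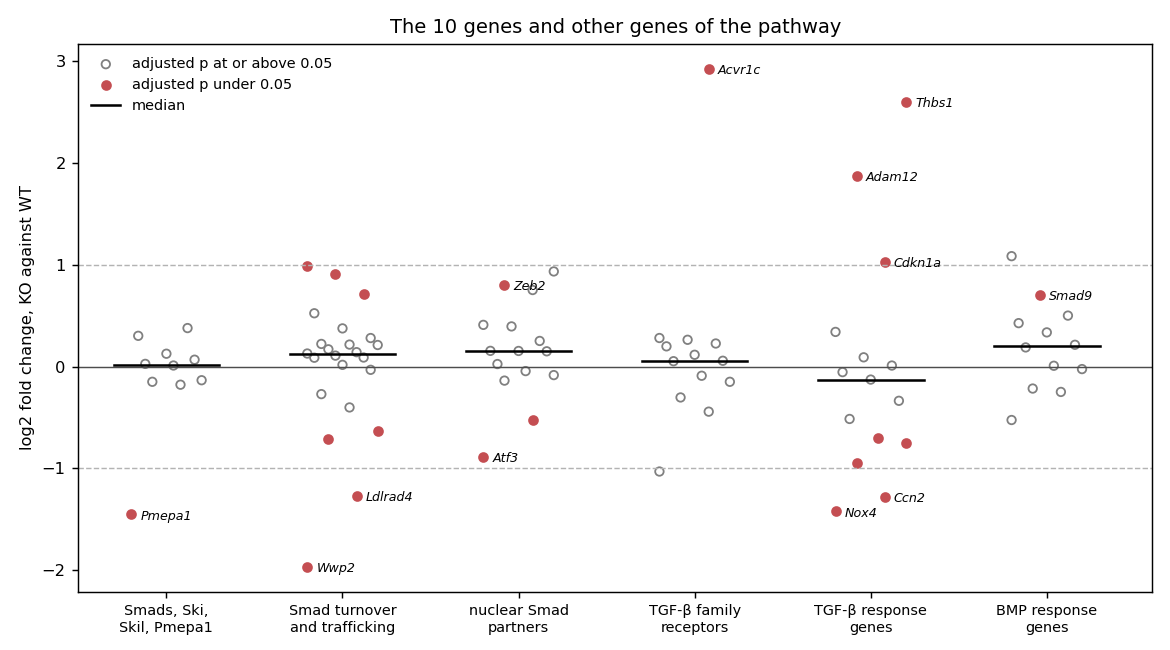
Log2 fold change, KO against WT (vertical axis), of the 10 genes and of the genes of 5 pathway lists; filled points passed an adjusted p of 0.05, bars are list medians, dashed lines mark a 2-fold change and horizontal position within a list has no meaning. Pmepa1 stands at -1.45 with the other 9 between -0.18 and 0.38, and the TGF-β response genes run from -1.42 (Nox4) to 2.60 (Thbs1).

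The genes whose pattern over the 6 libraries was most like that of Pmepa1 were sought among the 11416 genes whose normalised count averaged 100 or more, by the root mean square difference of their log2 changes from the WT mean. The nearest were Rrad (0.108 log2 units), Miip (0.126) and Galnt6 (0.134). Rrad, a Ras-related GTPase, had 4488, 5086, 3973 and 3257 normalised counts in WT and 1343 and 1726 in KO. Their log2 changes, -1.45, -1.50 and -1.66, were close to that of Pmepa1 because the measure picks such genes, so they are given as a description.

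Markers of some other cell types differed between the groups, and their values are given here beside those above. Of 9 smooth muscle markers 0 passed the DESeq2 test (4 had an unadjusted p under 0.05, beside 22.2% of all tested genes). Their summed normalised count was 912600 to 1072000 in WT and 873700 and 1028000 in KO. The sum does not show that single markers moved in opposite directions. For 3 of the 9 both KO libraries were below every WT library, and for 3 above, beside 16.4% and 17.9% of all tested genes. All 9 were counted in every library. Macrophage markers were higher for 8 of 9 genes, beside 5.71% of all tested genes. The macrophage sums were 9021 to 10900 in WT and 15660 and 17920 in KO. Endothelial markers were higher for 4 of 10 (13530 to 23910, against 32920 and 32410) and fibroblast markers for 2 of 8 (48530 to 54920, against 68520 and 61790). A sum is led by the most abundant markers. The mean log2 change of the 8 fibroblast markers from the WT mean was 0.488 in KO-1 and 0.146 in KO-2. The value of KO-2 was inside the WT range of -0.0749 to 0.184. None of the macrophage, endothelial or fibroblast markers was lower past the test, beside 4.69% of all tested genes. For 7 of the 10 endothelial markers both KO libraries were above every WT library, beside 17.9% of all tested genes. For 1, Erg, both were below, beside 16.4%. Erg had 1462 to 1965 normalised counts in WT and 913.6 and 1310 in KO (log2 change -0.57, DESeq2 adjusted p = 0.0719).

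The KO libraries also differed from each other. Cardiac muscle markers, higher for 5 of 7 genes, summed to 664.5 to 1653 in WT, 25050 in KO-1 and 2731 in KO-2. Adipocyte markers, higher for 4 of 8, summed to 2418 to 4095 in WT, 4041 in KO-1 and 42170 in KO-2. Of all tested genes, 5.71% were higher by the same test. Ucp1 and Nppa, defining markers of brown adipocytes and atrial muscle, were at 0 in some library. Mitochondrial transcripts took 2.62% to 4.44% of counts in WT, 3.38% in KO-1 and 11.7% in KO-2. The part of these markers in the values of Pmepa1 and the other 9 genes was not tested.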

How the data were processed

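RNA of whole thoracic aorta was sequenced. The authors trimmed reads with Trim Galore, mapped them to GRCm38 (mm10) with HISAT2 and quantified GENCODE M15 genes with StringTie. What the authors deposited are estimated counts, 1 whole number per gene and library, not scaled for depth; how they were made whole, and whether counting used strand, is not given in the sources used here. Columns carry codes and were matched to samples by inference: the code running to 4 was taken as WT and the one running to 2 as KO.

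All genes were fitted with DESeq2 1.42.0 (R 4.3.3; Wald test, group only, default size factors and filtering), called at an adjusted p under 0.05. Of 52636 genes, 27151 had no counts and 52489 matched GENCODE M21 (GRCm38), which gave positions and exon lengths; promoters are from RefSeq. Single-library changes used a pseudocount of 0.5. The 15 alternatives included edgeR 4.0.16; shares by longest transcript were added after seeing the data. The genes and lists were chosen with earlier results of these data known. Beyond the 10 genes, Tgfbr1 and Tgfbr2, pathway genes were named when past the adjusted p and 2-fold, otherwise the 2 per list with the smallest adjusted p, and the 3 genes most like each called one. 1 gene of the lists is not reported here and is in no list count. The fits were tested on simulated data, in which a larger share of calls was false with DESeq2 than with edgeR, and with both more than the adjusted p allows.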

Additional observations from a re-analysis of the deposited data

Results flagged for a closer look

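In each of 30 sets of 4 WT values (normalised counts of the named genes and Smad shares), the sample farthest from the others was compared with the whole range. Such a check picks about 1 set in 20 by chance, 1.5 of 30, and picked 2. Smad1 had 840.5 normalised counts in WT-4, beside 779.5 to 787.9 in the other WT libraries; both KO libraries were above it. The share of Smad3 in the summed Smad level was 10.9% in WT-2, beside 9.77% to 9.95%, and 11.6% or more in KO.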

How the results depend on the processing

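Pmepa1 was the 1 gene of the 10 called under every alternative except a test against a 2-fold change, which left 0 called with or without the fold requirement. Over the 150 combinations of gene and alternative, 132 kept direction and side of the threshold, 1 (Pmepa1 against 2-fold) lost its call and 17 changed sign, all of them log2 changes that were not called: Smad4 with edgeR (-0.00808), Smad4 (-0.0099), Smad5 (-0.108), Smad7 (0.0597) and Ski (0.00253) with a GC trend removed, Smad5 with an exon length trend removed (-0.0485), and the rest on leaving out a library or with the replicate block. Leaving out each library in turn gave -0.401 to 0.523 for Smad2, -0.43 to 0.382 for Smad5, -0.0247 to 0.0439 for Smad4 and -0.0781 to 0.203 for Smad6. With 1 KO library left out, the other is assumed to vary like WT.

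Pathway calls, 20 in all, were 11 with edgeR, 10 with edgeR and no filter, 2 against a 2-fold change and 12 to 23 on leaving out a library, the 12 without KO-2. The numbers 1 and 2 occur in both groups, but nothing in the labels pairs them. Deviations of same-numbered libraries from their group means had r = -0.087 and 0.014. With only 2 KO libraries the deviations of KO-1 and KO-2 mirror each other, so these values cannot decide whether libraries are paired. With the replicate block on those numbers, pathway calls were 9 and the log2 change of Skil was 0.0327. Of 16 Smad shares, 3 moved with the longest transcript length, Smad1 to 9.33% in WT and 10.4% in KO and Smad9 to 10.1% in KO. With 2 KO libraries, changes whose 95% interval holds 0 could not be told from none.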
